A study of Mus musculus with 19 samples.

Results

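The genes described here are 9 core genes of the transforming growth factor beta (TGF-beta) pathway, namely Tgfb1, Tgfb2, Tgfb3, Tgfbr1, Tgfbr2, Tgfbi, Eng, Smad4 and Smad7, together with Trim33, which makes 10 genes. Spots of the array name 9 of them, among 19087 genes in all. They were chosen by gene symbol. Trim33 was added because it was lower in treated tumours, so the comparison of treated with untreated tumours is given for all of these genes as a description without a test. Smad7, the inhibitory SMAD that blocks the activated receptor, was named by no spot used here and has no value. TGF-beta ligands are secreted in a latent form, are released in the matrix, and bind the type II receptor Tgfbr2, which recruits and activates the type I receptor Tgfbr1. The active receptor phosphorylates Smad2 and Smad3, which join Smad4 and enter the nucleus to regulate target genes. In mammary tumours the pathway is known both for restraining the growth of epithelial cells and for driving matrix production in the stroma.

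All 19 tumours were adenocarcinomas of the mammary gland in mice of strain FVB. Treated and untreated mice alike carried a transgene in which the C3(1) promoter of the rat drives T antigen, the oncoprotein of simian virus 40, in mammary epithelium. The treated groups held 3 tumours called responders (1 after 2 weeks and 2 after 3 weeks) and 9 called non-responders (4 after 2 weeks and 5 after 3 weeks), 12 in all, from mice given the DNA-crosslinking drug carboplatin and the microtubule-stabilising drug paclitaxel. The other 7 tumours were untreated. The sources used here do not give age, dose or the way in which response was judged, and nothing says that every tumour came from a different mouse: responder 3 and non-responder 1 carry the same animal number.

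Each tumour was hybridised once, in Cy5, against a whole-mouse reference RNA in Cy3, and every level below is a log2 ratio, likely tumour over reference, since neither the direction nor the log base is stated. A ratio tells how a gene differs between tumours; it does not rank one gene against another. Array medians lay between -0.081 and 0.009 and arrays correlated at 0.484 to 0.817 with each other. The mean of 8 markers of the mammary epithelium that the labels name was 0.23 to 1.004 in treated and 0.23 to 0.81 in untreated tumours. Krt8, Krt18 and Epcam averaged over 1 in both groups, and Krt5 and Cdh1 below 0 in both. Elf5 averaged 0.88 in treated and 2.19 in untreated tumours, Krt14 0.98 and -0.04, and Krt19 0.17 and -0.62. Of the 8 markers 4 were higher in treated tumours, with a median difference of 0.18. Of these 1 passed by limma at an adjusted p under 0.05, beside 2.21% of all genes that passed as higher. The titles are written in 2 styles, with or without a hyphen before the animal number. All 3 responders, 2 non-responders and 2 untreated tumours have the hyphen, and 7 non-responders and 5 untreated tumours do not. In addition, 10 of the 12 treated tumours have a title number above that of every untreated tumour; the part of these numbers in any difference was not tested. In a piece of tumour, fewer cells of a type and less RNA per cell cannot be told apart.

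Promoter sequence is shown for 4 of the genes: Tgfbi and Eng, both higher in treated tumours, and the ligands Tgfb1 and Tgfb2, whose start regions differ in composition. Promoter windows drawn from RefSeq (GRCm38.p6) were at hand for 6 of the 10 genes. The 250 bases before the start site are printed 5′ to 3′ on the strand of the gene. Capitals mark the SMAD half-site CAGAC or its reverse complement GTCTG, and the TATA box TATAAA. The windows are chr13:56609336-56609585 on the plus strand, chr2:32646345-32646594 on the plus strand, chr7:25686752-25687001 on the plus strand and chr1:186705990-186706239 on the minus strand. The span of Tgfb2 in the same annotation begins upstream of its window.
Tgfbi: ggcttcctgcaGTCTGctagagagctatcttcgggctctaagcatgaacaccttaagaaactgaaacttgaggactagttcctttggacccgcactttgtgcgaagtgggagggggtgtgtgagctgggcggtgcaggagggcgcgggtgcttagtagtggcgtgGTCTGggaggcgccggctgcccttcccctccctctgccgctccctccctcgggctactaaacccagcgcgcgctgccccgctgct
Eng: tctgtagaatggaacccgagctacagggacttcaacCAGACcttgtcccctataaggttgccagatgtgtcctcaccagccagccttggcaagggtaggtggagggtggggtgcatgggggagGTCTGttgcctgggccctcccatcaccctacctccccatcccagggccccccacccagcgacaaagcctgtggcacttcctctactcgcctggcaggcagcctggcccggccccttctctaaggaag
Tgfb1: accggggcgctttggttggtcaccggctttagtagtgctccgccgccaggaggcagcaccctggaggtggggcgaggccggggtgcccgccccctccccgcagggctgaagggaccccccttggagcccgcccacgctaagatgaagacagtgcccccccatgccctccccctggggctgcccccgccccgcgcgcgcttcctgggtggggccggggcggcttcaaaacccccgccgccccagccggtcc
Tgfb2: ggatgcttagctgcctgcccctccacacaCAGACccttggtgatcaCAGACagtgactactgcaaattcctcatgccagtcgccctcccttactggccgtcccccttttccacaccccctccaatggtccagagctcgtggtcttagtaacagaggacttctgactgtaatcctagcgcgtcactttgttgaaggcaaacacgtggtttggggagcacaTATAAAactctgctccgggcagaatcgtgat
The windows of Tgfbi and Eng each hold 2 SMAD half-sites, at -239 and -85 and at -214 and -127 counted from the start site. Tgfb2 also holds 2, at -221 and -204, and the TATA box lies at -31. The window of Tgfb1 holds neither motif but 5 GC boxes (GGGCGG, either strand), and 75.2% of its bases are G or C, beside 62.4% for Tgfbi and Eng, 53.6% for Tgfb2 and a median of 52.4% over 32851 such windows. Of all these windows, 42.2% hold at least 1 SMAD half-site on either strand, 12.4% the TATA box and 32.7% the GC box. The share that holds 2 half-sites was not counted. Among windows not printed, that of Tgfbr2 holds 1 half-site, and those of Tgfbr1 hold 0 and 1. A match of letters is a description and shows no binding.

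The first comparison asked how the pathway stood in tumours after 2 or 3 weeks of the 2 drugs, set against untreated tumours. Trim33 was 2.22-fold lower in the 12 treated tumours. The matrix protein Tgfbi was 3.07-fold higher, the co-receptor Eng 1.76-fold and the ligand Tgfb3 1.69-fold, while Tgfb2, Tgfbr1 and Smad4 differed from untreated tumours by 0.12 log2 units or less. Over all 18553 genes tested 3.65% passed by limma at an adjusted p under 0.05, 2.21% higher and 1.44% lower, but no call is given for the 9 measured genes, since Trim33 was chosen in this contrast. Of the 9, 7 had a positive difference, and the median was 0.29, beside 0.03 over all genes.

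**Figure D1:**
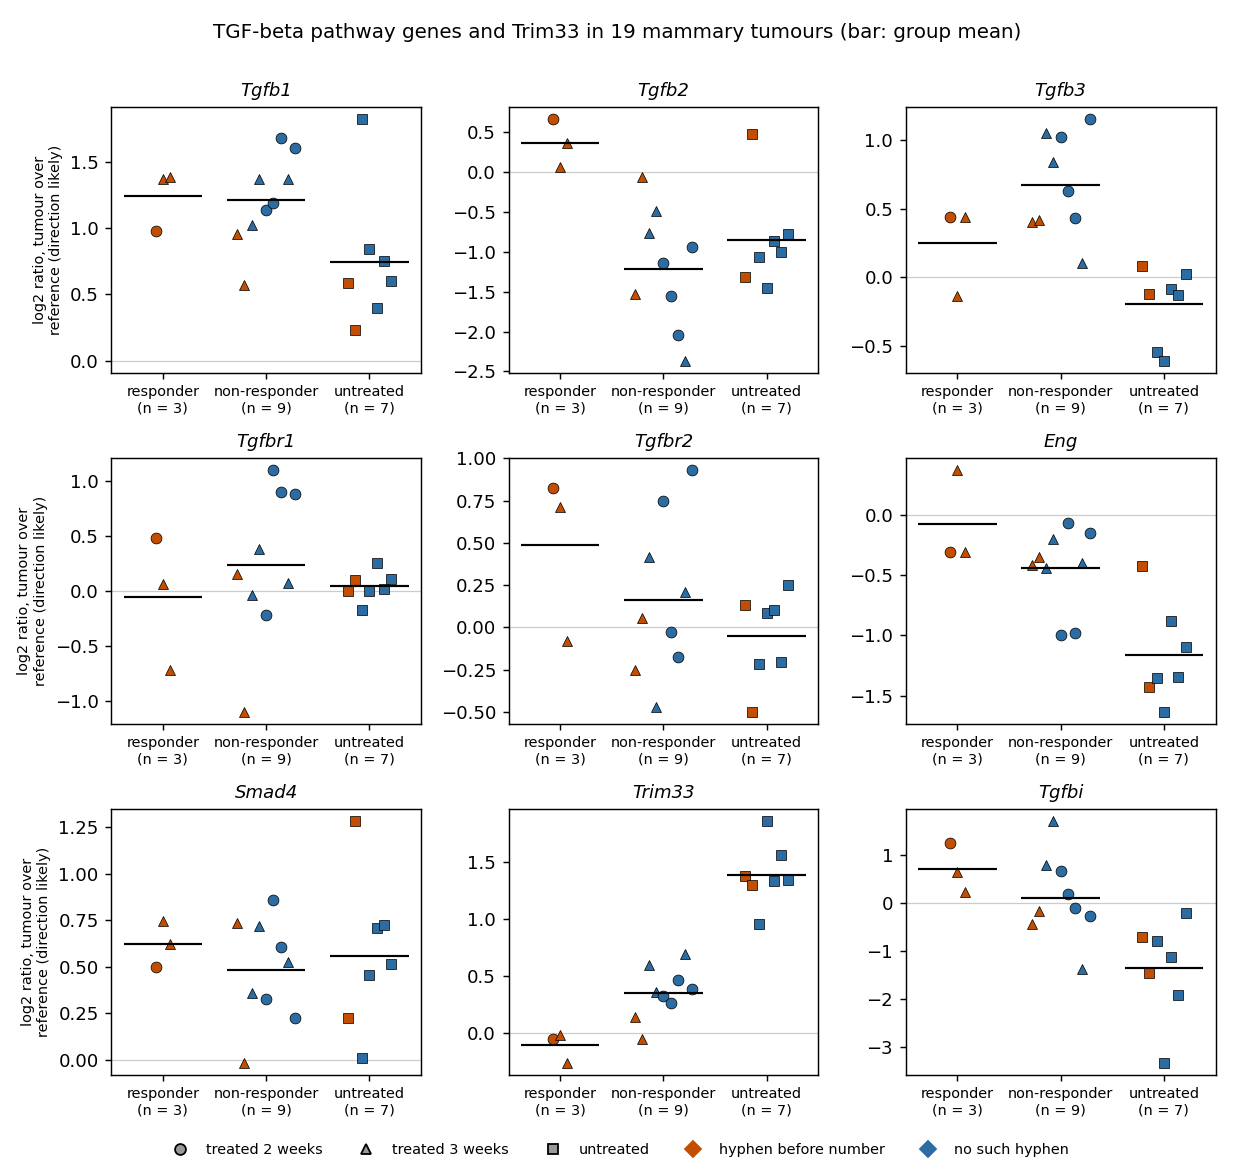
Log2 ratios of the 9 measured genes in each of the 19 tumours, by response group, with a bar at the group mean. The shape of a point gives the weeks of treatment and its colour the title style. All 12 treated tumours lie below all 7 untreated ones for Trim33, whereas for Tgfb3, Eng and Tgfbi the groups are shifted but overlap.

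Among the ligands, Tgfb1, the main isoform of platelets and immune cells, had a lowest, median and highest log2 ratio of 0.57, 1.28 and 1.69 in treated tumours, against 0.23, 0.60 and 1.83 in untreated ones. The difference was 0.47 ± 0.19 (SE), and 11 of 12 treated tumours lay above the untreated mean, but 1 untreated tumour was higher than every treated one. Tgfb2 had a lowest, median and highest log2 ratio of -2.36, -0.85 and 0.67 in treated tumours and of -1.45, -1.004 and 0.47 in untreated ones. The treated tumours were the more widely spread and covered the whole untreated range, and the means differed by 0.04 ± 0.38. Tgfb3, the isoform needed for fusion of the palate in mouse development, stood at -0.13, 0.44 and 1.15 in treated tumours, against -0.61, -0.12 and 0.09 in untreated ones (lowest, median and highest log2 ratio). All 12 treated tumours lay above the untreated mean of -0.20. The only treated tumour within the untreated range was responder 2 (-0.13), and the difference was 0.76 ± 0.18. Within the title styles that difference was 0.33 ± 0.27 with the hyphen (5 treated and 2 untreated tumours) and 1.01 ± 0.21 without it (7 and 5).

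Both signalling receptors differed little. Tgfbr2, the type II receptor that binds the ligand, averaged 0.24 ± 0.47 in treated and -0.05 ± 0.26 in untreated tumours (SD, n = 12 and 7), a difference of 0.29 ± 0.20. Tgfbr1, the type I kinase, averaged 0.17 ± 0.65 in treated and 0.05 ± 0.13 in untreated tumours (SD). The means of Tgfbr1 lay close together, at a difference of 0.12 ± 0.25, while its treated tumours spread from -1.09 to 1.10 and its untreated ones only from -0.17 to 0.25. Endoglin, encoded by Eng, is a co-receptor of endothelial cells. Its lowest, median and highest log2 ratio were -0.997, -0.33 and 0.37 in treated tumours, against -1.63, -1.34 and -0.43 in untreated ones. All 12 treated tumours were above the untreated mean, although untreated 1 (-0.43) lay among them, and the difference was 0.81 ± 0.19. The difference of Eng was 0.72 ± 0.36 among titles with the hyphen and 0.80 ± 0.21 among those without. Of 12 endothelial markers, 10 were higher in treated tumours and 2 passed, with a median difference of 0.24. Over all genes 2.21% passed as higher, and the median difference was 0.03. The mean log2 ratio of the endothelial markers was -1.49 to -0.65 in treated tumours and -1.85 to -0.75 in untreated ones. Their part in the difference of Eng between the groups was not tested.

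Smad4, the shared partner of the receptor-activated SMADs, averaged 0.52 ± 0.25 in treated and 0.56 ± 0.41 in untreated tumours (SD). The difference was -0.04 ± 0.16, and 6 treated tumours lay on each side of the untreated mean. Trim33, also known as TIF1-gamma, binds activated Smad2 and Smad3 and can ubiquitinate Smad4, which limits its activity. The lowest, median and highest log2 ratio of Trim33 were -0.26, 0.30 and 0.70 in treated tumours, against 0.96, 1.34 and 1.86 in untreated tumours. No treated tumour reached the lowest untreated one, and the difference of -1.15 ± 0.15 was the 133rd lowest of the 18553 genes. The groups did not overlap, in either direction, for 0.334% of genes, and for 0.146% with the treated tumours lower. Within the title styles Trim33 differed by -1.38 ± 0.24 with the hyphen and by -0.97 ± 0.17 without it. Its value rests on 1 spot.

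Tgfbi, a secreted matrix protein named for its induction by TGF-beta, had the largest difference of the 9 genes. Its lowest, median and highest log2 ratio were -1.38, 0.21 and 1.71 in treated tumours, against -3.33, -1.13 and -0.20 in untreated ones. Of the treated tumours 11 lay above the untreated mean, and non-responder 8 (-1.38) lay just below it. The difference was 1.62 ± 0.40 over all tumours, 1.38 ± 0.48 among titles with the hyphen and 1.70 ± 0.57 among those without. Markers of fibroblasts and macrophages, both known to make Tgfbi, stood higher too. Of 12 fibroblast markers 11 were higher in treated tumours and 1 passed (median difference 0.74), and their mean was -2.70 to -0.04 in treated tumours and -2.76 to -1.11 in untreated ones. Of 13 macrophage markers 11 were measured, 9 were higher in treated tumours and 5 passed (median 0.59). Their mean was 0.64 to 1.88 in treated tumours and 0.15 to 1.13 in untreated ones. Over all genes 2.21% passed as higher, and the median difference was 0.03. Markers of other cell types also stood higher in treated tumours, though none of these genes passed: 7 of 7 for skeletal muscle (median 0.76), 6 of 7 measured for T cells (0.37) and 4 of 5 measured for adipocytes (0.49). The mean of the muscle markers was -4.21 to -1.27 in treated and -5.59 to -2.65 in untreated tumours, that of the T cell markers -0.67 to 1.197 in treated and -0.73 to -0.20 in untreated tumours, and that of the adipocyte markers -4.16 to -0.47 in treated and -4.06 to -0.16 in untreated tumours. The part of any of these cell types in the group difference of Tgfbi or Tgfb3 was not tested.

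**Figure D2:**
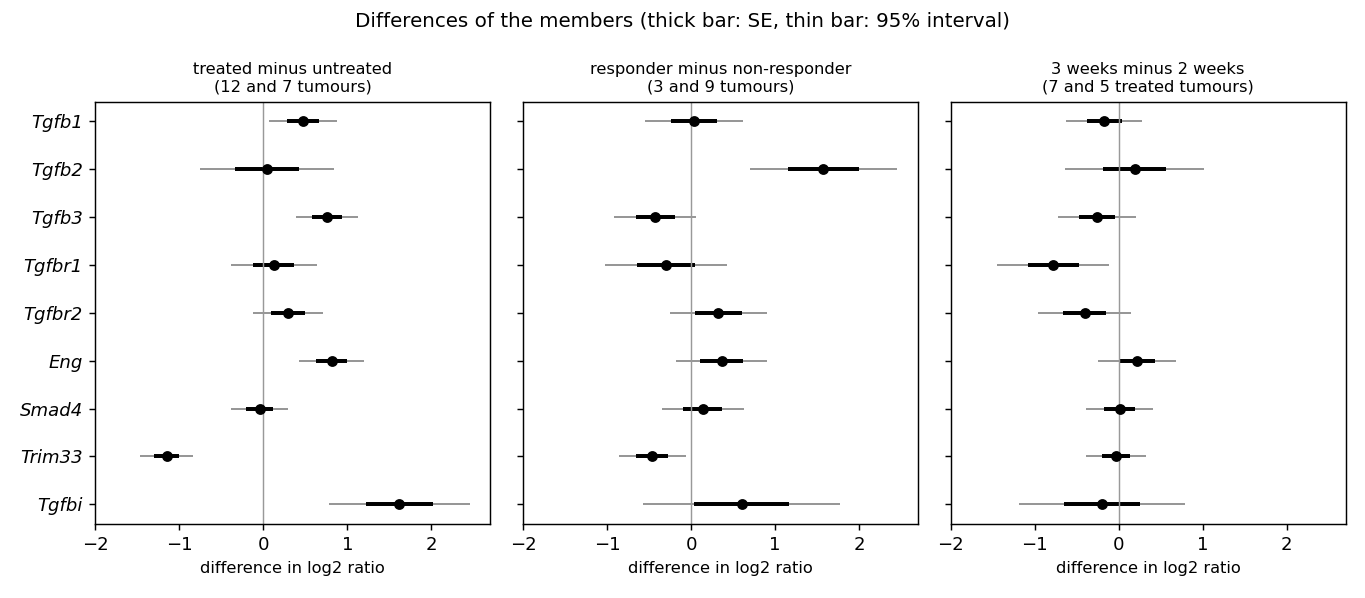
Differences in log2 ratio of the 9 measured genes for treated minus untreated, responder minus non-responder and 3 weeks minus 2 weeks. Points are differences, thick bars the SE and thin bars the 95% interval. Trim33 is the gene farthest below 0 in the left panel (-1.15), Tgfb2 the farthest above 0 in the middle panel (1.58) and Tgfbr1 the farthest below 0 in the right panel (-0.78).

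Where a gene had several spots they allow a look at technical spread. Tgfb1 had 10 spots, and each of them was higher in treated tumours, with differences between 0.18 and 0.75. On most arrays the 10 spots lay close together, with a median SD between spots of 0.27. The spots were widest in non-responder 6 (SD 0.93), non-responder 7 (0.78) and untreated 3 (0.78), where they fell into a low and a high set. Untreated 3 was the array with the highest Tgfb1, and its single spots ran from 0.85 to 2.67. The 2 spots of Smad4 went in opposite directions between treated and untreated tumours (0.28 and -0.37), as did those of Tgfbr1 (-0.11 and 0.63), so the small differences of both genes are means of opposed spots. The second Tgfbr1 spot was measured on 15 of 19 arrays, and on the others the gene's value rests on the first. The 3 spots of Tgfbr2 differed by 0.28, 0.10 and 0.50, all in 1 direction. Tgfb2, Tgfb3, Tgfbi, Eng and Trim33 had 1 spot each.

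**Figure D3:**
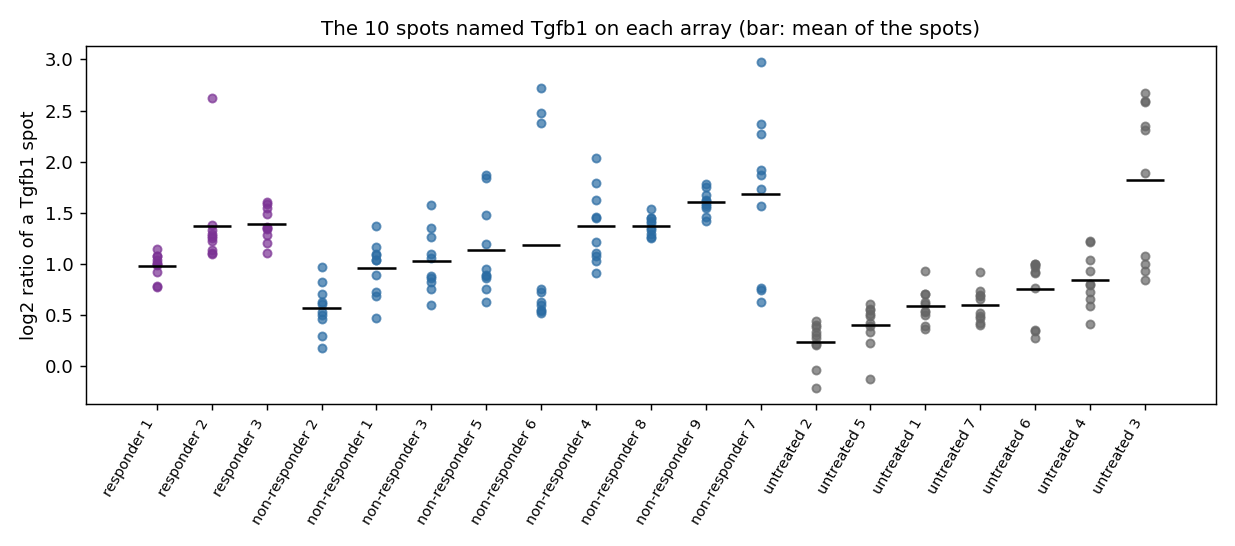
Log2 ratio of each of the 10 Tgfb1 spots on every array, by response group and ordered by their mean within a group, with a bar at the mean of the spots. Spots sit close together on most arrays and are split into a low and a high set in non-responder 6, non-responder 7 and untreated 3.

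The same genes were set against the 7 untreated tumours by response and by time. These comparisons share the untreated tumours, so their likeness is no separate evidence, and the values are given side by side. Trim33 differed by -1.50 ± 0.20 in responders and by -1.03 ± 0.14 in non-responders, and neither group overlapped the untreated tumours. Tgfbi differed by 2.07 ± 0.58 in responders and by 1.47 ± 0.43 in non-responders, and Eng by 1.08 ± 0.27 in responders and by 0.72 ± 0.19 in non-responders; for both genes the responders did not overlap the untreated tumours. Tgfb3 differed by 0.44 ± 0.24 in responders and by 0.87 ± 0.18 in non-responders, whose lowest value (0.10) was just above the highest untreated one (0.09). Groups that do not overlap were found for 7.04% of all genes between responders and untreated tumours and for 0.528% between non-responders and untreated tumours. By time, Trim33 differed from untreated tumours by -1.11 ± 0.19 after 2 weeks and by -1.18 ± 0.17 after 3 weeks. Tgfb3 differed by 0.93 ± 0.21 after 2 weeks and by 0.64 ± 0.19 after 3 weeks, Tgfbi by 1.70 ± 0.51 after 2 weeks and by 1.56 ± 0.46 after 3 weeks, and Eng by 0.67 ± 0.23 after 2 weeks and by 0.92 ± 0.21 after 3 weeks. Tgfbr1 differed from untreated tumours by 0.59 ± 0.25 after 2 weeks and by -0.21 ± 0.23 after 3 weeks, and Tgfbr2 by 0.51 ± 0.24 after 2 weeks and by 0.14 ± 0.22 after 3 weeks.

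The next comparison asked whether the genes differed between responders and non-responders. Trim33 was not chosen by this contrast, but the genes and tests were chosen with earlier results of these data known. None of the 9 measured genes passed, as none of the 18553 genes tested did (0%), and 2 of the 9 had an unadjusted limma p under 0.05, Tgfb2 and Trim33. Over all genes 1174 had such a p, where chance gives 928. Tgfb2, the isoform that needs the co-receptor Tgfbr3 to bind Tgfbr2 well, had log2 ratios of 0.07, 0.36 and 0.67 in the 3 responders, against a lowest, median and highest of -2.36, -1.15 and -0.06 in the 9 non-responders. Every responder was above every non-responder, which holds for 0.97% of genes in that direction and 1.85% in either. The difference of 1.58 ± 0.42 (2.98-fold, 95% interval 0.70 to 2.45) had an adjusted p of 0.528 by limma. Untreated tumours had a median Tgfb2 of -1.004, and responders differed from them by 1.22 ± 0.43. With the hyphen titles alone, which hold all 3 responders and 2 non-responders, Tgfb2 differed by 1.16 ± 0.63. Without the hyphen the comparison cannot be made, since those tumours include no responder. In the pair of tumours with 1 animal number, Tgfb2 stood at 0.36 in responder 3 and at -1.53 in non-responder 1.

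Trim33 had log2 ratios of -0.26, -0.05 and -0.01 in the responders, against a lowest, median and highest of -0.05, 0.36 and 0.70 in the non-responders. All 3 responders were below the non-responder mean, the groups overlapped in non-responder 2, and the difference of -0.46 ± 0.19 had an adjusted p of 0.709 by limma. The title style ran along with this difference. Trim33 lay between -0.26 and 0.15 in the 5 treated tumours with a hyphen and between 0.26 and 0.70 in the 7 without. How many other genes separate these tumours in that way was not counted. Among the titles with a hyphen responders differed from non-responders by -0.16 ± 0.28. Untreated tumours averaged 1.34 with the hyphen and 1.41 without it. Tgfb3 differed by -0.42 ± 0.23 (adjusted p = 0.825 by limma), by -0.23 ± 0.27 without responder 2 and by -0.16 ± 0.32 among titles with the hyphen. The other 6 genes had adjusted p between 0.897 and 0.999 by limma. For these the 95% intervals were wide, for example -0.57 to 1.78 for Tgfbi and -0.17 to 0.90 for Eng, so the test does not show that the groups were alike. All 7 markers of skeletal muscle were higher in responders, with a median difference of 1.11, and their mean log2 ratio ran from -3.34 to -1.27 in responders and from -4.21 to -2.49 in non-responders. Also higher in responders were 10 of 12 fibroblast, 9 of 12 endothelial, 5 of 7 T cell and 4 of 5 adipocyte markers. Of the macrophage markers 6 of 11 were higher, and of the mammary epithelium markers 3 of 8. The mean of the epithelium markers was 0.23 to 0.60 in responders and 0.53 to 1.004 in non-responders. The part of any of these cell types in the differences of Tgfb2 and Trim33 was not tested.

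Among the 12 treated tumours, 7 after 3 weeks were compared with 5 after 2 weeks, with response as a covariate. None of the 9 genes and none of the 18624 genes tested passed by limma (0%), and 825 genes had an unadjusted p under 0.05 where chance gives 931. Of the 9 genes only Tgfbr1 had such a p. Its log2 ratios were -0.22, 0.49, 0.89, 0.90 and 1.10 after 2 weeks, and its lowest, median and highest were -1.09, 0.07 and 0.39 after 3 weeks. Non-responder 5 was the only tumour after 2 weeks that lay within the range after 3 weeks, and the difference was -0.78 ± 0.31 (adjusted p = 0.940 by limma). However, the second and higher Tgfbr1 spot was missing in 3 of the 7 tumours after 3 weeks and in none after 2 weeks. On the first spot alone, measured on every array, the difference was -0.55 ± 0.26 (adjusted p = 0.947 by limma), and the weeks overlapped in more tumours. Tgfbr2 differed by -0.41 ± 0.26. The difference of Trim33 was -0.03 ± 0.17, with a 95% interval of -0.39 to 0.33, and that of Tgfbi was -0.20 ± 0.45, with an interval of -1.19 to 0.79. The other 5 genes differed by between -0.26 and 0.22.

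To place these genes in the wider pathway, 7 lists chosen with earlier results of these data known were read. They held 96 further genes, of which 90 were measured. Id3, an inhibitor of helix-loop-helix factors induced by bone morphogenetic proteins (BMPs) and TGF-beta, was the only one to pass between treated and untreated tumours, that is 1.11% of the 90 beside 3.65% of all genes. It averaged 0.05 ± 0.75 in treated and -1.39 ± 0.95 in untreated tumours (SD), and all 12 treated tumours were above the untreated mean. The difference was 1.45 ± 0.37 (adjusted p = 0.0364 by limma), but it did not pass without responder 1 or 3, non-responder 4, 5 or 9, or untreated 2, 3, 4 or 6 (lowest without untreated 4, at 1.22 with an adjusted p of 0.0987), nor within either title style (1.73 ± 0.57 with the hyphen and 1.30 ± 0.48 without it), nor without the 3 arrays of widest Tgfb1 spots (1.31 ± 0.41, adjusted p = 0.0824 by limma). The unadjusted limma p was under 0.05 for 22 of the 90 (24.4%), beside 3714 of the 18553 genes (20.0%). The median difference was 0.23 over the 90 genes, beside 0.03 over all genes.

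By role, the differences were largest among the response genes, which are known to follow TGF-beta or BMP signals. Of 21 measured, 18 had a positive difference, with a median of 0.54, and 8 had an unadjusted limma p under 0.05. Behind Id3 came Tagln, a smooth-muscle actin-binding protein (1.29 ± 0.40, adjusted p = 0.0675 by limma). This list holds Col1a1, Col1a2 and Col3a1, which are also on the fibroblast list. Of the 12 extracellular inhibitors 8 had a positive difference (median 0.40), led by the BMP antagonist Grem1 at 2.09 ± 0.62 (adjusted p = 0.06 by limma, measured in 11 treated and 7 untreated tumours) and by Fstl1 at 1.26 ± 0.49. Of 12 further ligands 7 had a positive difference (median 0.27), with Bmp2 at 0.99 ± 0.41 and Bmp4 at 0.69 ± 0.24 the farthest from 0. Among 10 genes of latency and activation (median 0.22), Thbs1, a matrix protein that can release TGF-beta from its latent complex, stood at 1.12 ± 0.39 and Itgb8, a subunit of an activating integrin, at -0.92 ± 0.31. Grem1 was at -5.97 in untreated 6 and between -2.07 and -0.09 in the other untreated tumours, and without untreated 6 its difference was 1.41 ± 0.41 (adjusted p = 0.0832 by limma). None of these 3 lists held a gene that passed, and 4 inhibitors, 2 ligands and 4 genes of latency and activation had an unadjusted limma p under 0.05, to be read against the 20.0% of all genes.

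The receptors and SMADs were centred near 0. The 11 further receptors and co-receptors had a median difference of -0.05, with Acvr2b at 0.63 ± 0.41 and Bmpr2, the BMP type II receptor, at -0.38 ± 0.13 (lower than the untreated mean in all 12 treated tumours, adjusted p = 0.0861 by limma). The 21 SMADs and SMAD regulators had a median of -0.09, led by the inhibitory Smad6 at 0.57 ± 0.17 (adjusted p = 0.0623 by limma) and by the corepressor Tgif1 at 0.46 ± 0.53, which was 0.07 without non-responder 6. The 3 relatives of Trim33 in the TIF1 family were read as well. Trim28 stood higher in treated tumours, at 0.59 ± 0.18 (adjusted p = 0.0689 by limma), with a lowest, median and highest log2 ratio of -0.28, 0.43 and 0.90 in treated and of -1.08, -0.06 and 0.22 in untreated tumours. Trim24 stood at -0.32 ± 0.19 (0.28 among titles with the hyphen) and Trim66 at 0.13 ± 0.29 (-0.10 without untreated 7). No gene of these 3 lists passed, and 1 of 11 receptors, 2 of 21 SMAD genes and 1 of 3 TIF1 genes had an unadjusted limma p under 0.05, beside the same 20.0%.

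**Figure D4:**
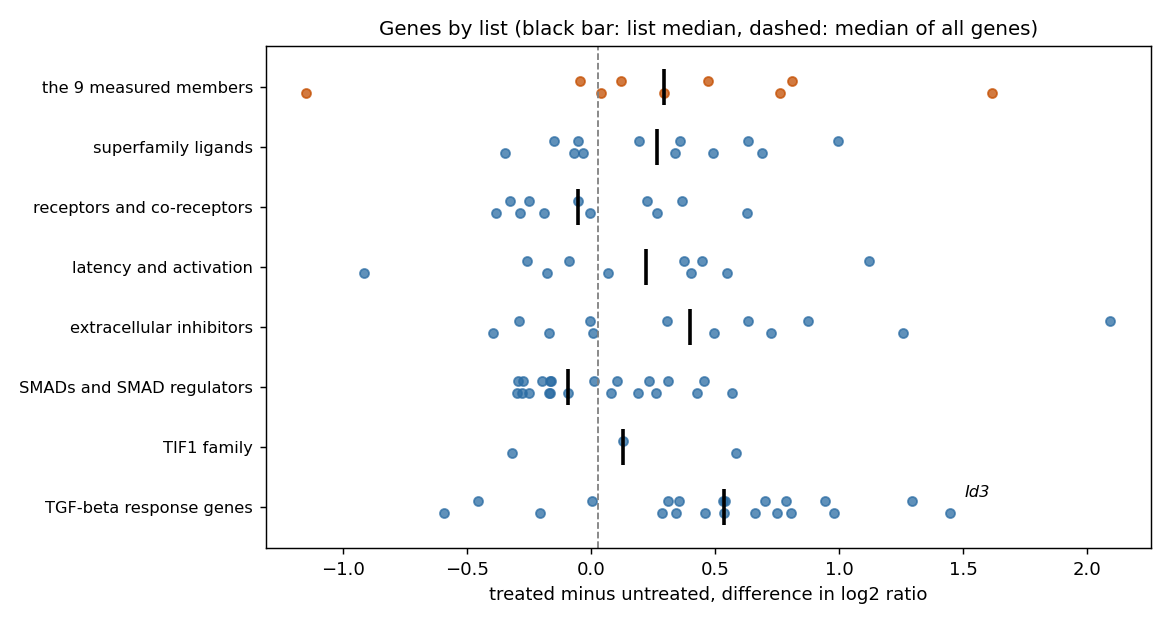
Treated-minus-untreated differences in log2 ratio of the 9 measured genes (orange) and of the 90 further pathway genes (blue) by list. A black bar marks the median of a list and the dashed line the median of all genes (0.03). The response genes are centred farthest to the right (0.54), and the receptors (-0.05) and SMADs (-0.09) lie near 0.

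Between responders and non-responders none of the 90 genes passed by limma. Of them 6 (6.67%) had an unadjusted limma p under 0.05, beside 6.33% of all genes. The smallest adjusted p, 0.558, belonged to Nodal, a ligand of early development, at -1.02 ± 0.28, with -1.24, -1.03 and -0.77 in responders against a range of -0.44 to 0.79 in non-responders. Among other ligands Mstn, the muscle-growth inhibitor, stood at 1.59 ± 0.74. Between 3 and 2 weeks none of the 90 passed either, and 12 (13.3%) had an unadjusted limma p under 0.05, beside 4.43% of all genes. There all 11 further receptors had a negative difference (median -0.50), as did Tgfbr1 and Tgfbr2, beside a median of -0.04 over all genes. On other lists 1 of 10 genes of latency and activation, 3 of 21 response genes and 4 of 12 inhibitors had a positive difference. So did 7 of 12 ligands, 10 of 21 SMAD genes and 1 of 3 TIF1 genes. Over the 90 genes 26 had a positive difference, with a median of -0.13. The co-receptor Eng differed by 0.22 ± 0.21, with all 7 tumours after 3 weeks above the mean after 2 weeks (-0.50). Its medians went the other way, at -0.36 after 3 weeks and -0.31 after 2 weeks. Of the 11 receptors the farthest from 0 were Tgfbr3, a co-receptor that presents TGF-beta 2, at -1.49 ± 0.68 and Bmpr1b at -0.90 ± 0.47. They were 0.73 and 0.62 among titles with the hyphen, which hold only 1 tumour after 2 weeks (responder 1). Bmp2 differed by -1.21 ± 0.31 and Id3 by -0.97 ± 0.27, each with an adjusted p of 0.940 by limma.

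Last, it was asked whether pairs of measures moved together from tumour to tumour within the groups. For each of the 19 tumours the deviation from the mean of its group was taken, and 9 pairs were tested by permuting tumours within groups. Eng followed the mean of the 12 endothelial markers, with a Pearson r of 0.775 (permutation p = 7e-05, adjusted over the 9 pairs 0.00063) and a Spearman rho of 0.800 (permutation p = 1e-05, the smallest that the permutations can give, adjusted 9e-05). Without the 2 tumours farthest from the median of Eng r was 0.682, and within title styles it was 0.794. Tgfbi followed the fibroblast markers, with r of 0.656 (permutation p = 0.00113, adjusted 0.00509) and rho of 0.614 (permutation p = 0.00649, adjusted 0.0292). Without the farthest 2 tumours r was 0.595, and within title styles 0.680. Tgfbi and the macrophage markers had r of 0.567 (permutation p = 0.0126, adjusted 0.0283) and rho of 0.579 (permutation p = 0.0114, adjusted 0.0341). Without 2 tumours r was 0.448, and within title styles 0.555 (adjusted p = 0.0572 by permutation). Eng and Tgfbi were paired with no other marker list, so these pairs do not show a link particular to those cell types.

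**Figure D5:**
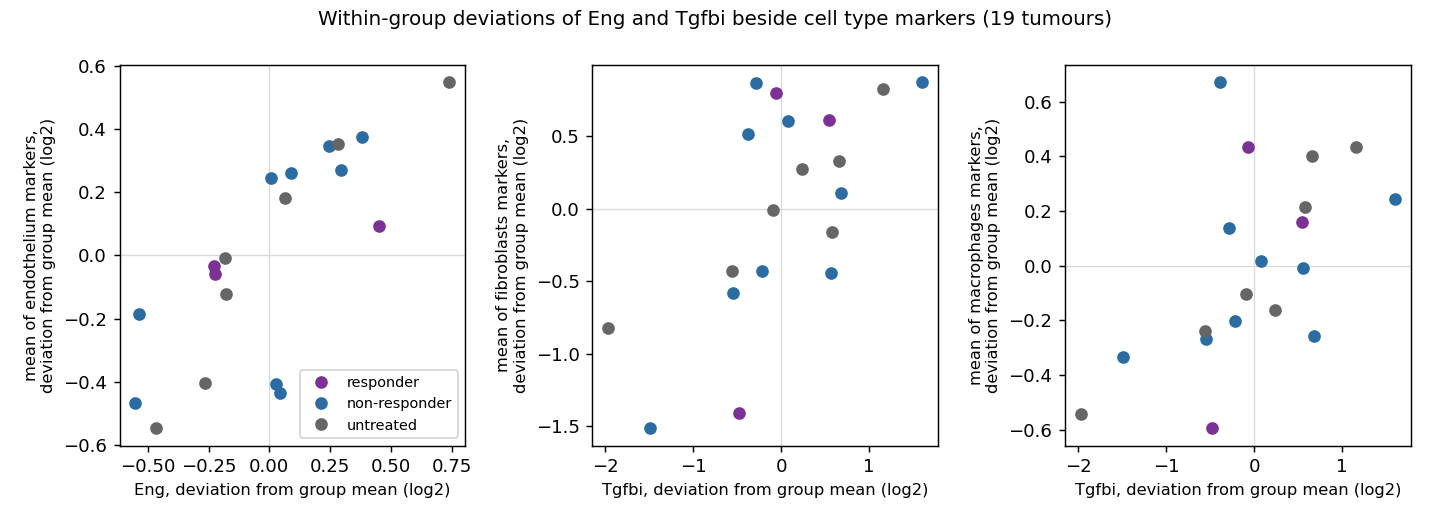
Deviations from the group mean in 19 tumours, of Eng against the mean of the endothelial markers and of Tgfbi against the means of the fibroblast and macrophage markers (all in log2 units). Points rise together in all 3 panels, most tightly for Eng (r of 0.775) and less so for Tgfbi (0.656 and 0.567).

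Of the ligands, Tgfb3 went with Tgfbi, at r of 0.579 (permutation p = 0.0116, adjusted 0.0283) and rho of 0.534 (permutation p = 0.0257), which did not pass after adjustment (adjusted p = 0.0577). That relation rests partly on non-responder 8 and untreated 4, which were low in both genes: without them r was 0.323, and within title styles it was 0.547 (adjusted p = 0.0643 by permutation). Tgfb2 and Tgfbi had r of 0.433 and rho of 0.402 (permutation p = 0.0902 and 0.112), and Tgfb1 and Tgfbi r of -0.03 and rho of -0.14 (permutation p = 0.907 and 0.587). Trim33 had r of -0.41 and rho of -0.20 with Tgfbi (permutation p = 0.118 and 0.452). This r was -0.11 without untreated 3 and 4 and -0.60 within title styles (adjusted p = 0.0643 by permutation). Trim33 had r of 0.213 and rho of 0.0246 with Smad4 (permutation p = 0.452 and 0.928). Tgfb3 and the fibroblast markers had r of 0.332 and rho of 0.276 (permutation p = 0.209 and 0.290). Without the 2 tumours farthest in the first measure of each pair, r was 0.687 for Tgfb2, -0.27 for Tgfb1 and 0.0093 for Tgfb3 with the fibroblast markers, and 0.0899 for Trim33 with Smad4. None of the last 5 pairs passed after adjustment over the 9 pairs (adjusted p for r from 0.162 to 0.907).

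Among 14984 genes measured on all 19 arrays, those whose within-group deviations were most like each gene are given as a description, since all points share the arrays. Nearest to Eng were Mtfr1l, Robo4, Cdh5, Icam2 and Esam, with r of 0.868 to 0.781, and Robo4, Cdh5 and Esam are on the endothelial list. Nearest to Tgfb3 were Prrx2, Ddit4l, Cthrc1, Cnn1 and Ptgs2 (0.879 to 0.760), and nearest to Tgfbi were Elk3, Trp53inp2, Gusb, AU022252 and Samd4 (0.921 to 0.839). Nearest to Trim33 were 4930599N23Rik, Ildr1, Wdr20, Ppwd1 and Ncapg2 (0.810 to 0.767).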

How the data were processed

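The authors deposited log2 ratios for each spot of every array. Per the labels, tumour RNA was in Cy5 and reference RNA in Cy3, with no dye swap. The log base and direction were inferred, and the sources used here name no scanner, background correction or normalization. An exact 0 (1.63% to 9.10% of the 45220 spots of an array) was taken as missing. Spots with 1 gene in the platform annotation (33653), measured on at least 70% of arrays, were averaged per gene, without centring. Differences were fitted with limma 3.58.1 in R 4.3.3 (lmFit, eBayes, two-sided) over all genes, with Benjamini-Hochberg adjustment and a threshold of 0.05: treated against untreated, responder against non-responder in a fit of 3 groups over 19 arrays, and 3 against 2 weeks over 12 treated arrays. The fits were tested on simulated data. Pairs used 100000 permutations; the pair of Trim33 and Smad7 was not computed. Named were the 10 genes, further pathway genes that passed, the 2 per list farthest from 0 and the 5 nearest genes of Trim33, Tgfbi, Tgfb3 and Eng. The genes, lists and tests were chosen with earlier results of these data known. Replicates are separate tumours numbered in the order listed, so p-values measure the spread between tumours. Responder 3 and non-responder 1, which share an animal number, were taken as independent in the tests. Their average was tried only between treated and untreated tumours. The number of arrays limits precision. RefSeq (GRCm38.p6) gave gene spans, and promoter windows for 6 of the 10 genes. Alternatives covered zeros, filters, spot summaries, scaling, title style, single tumours and groups.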

Additional observations from a re-analysis of the deposited data

Results flagged for a closer look

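Single tumours that stand apart from their group were looked for in 54 groups of values of the 9 measured genes, and 5 were found; chance alone gives about 1 in 20 groups. Tgfb1 was 1.83 in untreated 3, beside 0.84 in the next untreated tumour, and the mean of the other 6 was 0.57. Its 10 spots were also among the widest there (SD 0.78). Tgfb2 was 0.47 in untreated 2, beside -0.78 in the next untreated tumour. Tgfbr1 was -0.22 in non-responder 5, while the other 3 non-responders after 2 weeks were at 0.89 or more. Tgfbr1 was -1.09 in non-responder 2, beside -0.03 in the next of the 5 non-responders after 3 weeks. Its second spot was missing there, and on the first spot alone the next of them was at -0.61, so part of that gap sets different spots side by side. Eng was 0.37 in responder 2, beside -0.20 in the next of the 7 treated tumours after 3 weeks. What set these tumours apart was not tested.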

How the results depend on the processing

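No paired analysis was possible because replicate numbers only name tumours, and 1 animal number links a single responder with a single non-responder (responder 3 and non-responder 1). Scaling moved the median difference of all genes from 0.026 to 0.004 (centred arrays) or 0.002 (quantile normalization), and the share of genes passing upward was 60.5%, 54.2% and 58.3% in these 3 settings. Between treated and untreated tumours 678 genes and 1 further pathway gene passed as reported, and 594 and 1 with those 2 tumours averaged. With only spots measured on every array the counts were 1313 and 5 (Id3, Tagln, Itgb8, Smad6 and Trim28). Leaving out 1 tumour gave 212 genes (without untreated 4) to 1183 (without untreated 1), and 0 to 4 pathway genes (4 without untreated 1, 3 without non-responder 2, 2 without non-responder 7 or 8, and 0 without responder 1, non-responder 4, 5 or 9, or untreated 2, 3, 4 or 6). The count of genes also fell below 678 by over 1.5 times without untreated 2, 5 or 6, responder 1 or 2, or non-responder 4, 5 or 9, which left 222 to 446. Among titles with the hyphen 2 genes and 0 pathway genes passed, and among those without it 262 and 0. The count of pathway genes was 2 with the title style as a block, with the most variable spot of a gene, and without the 3 arrays of widest Tgfb1 spots, a setting chosen after seeing the data. Trim33 stayed between -1.38 and -0.97 in every setting run. It was chosen for its fall in this contrast of the same arrays, so that range is only a description. Among pathway genes Tgif1 turned sign among titles with the hyphen (-0.219) and without the 3 arrays (-0.036). Trim24 did so among titles with the hyphen (0.285) and Trim66 without untreated 7 (-0.103 to 0.219 without 1 tumour). Between responders and non-responders 0 genes passed as reported, 10 among tumours after 3 weeks only, and 0 to 12 without 1 tumour (12, 7 and 1 without responder 1, 2 and 3); 0 members and 0 pathway genes passed in any setting. There the sign of Tgfb1 turned with the most variable spot (-0.262) and between -0.046 and 0.167 without 1 tumour, and that of Tgfbr1 with the title style as a block (0.071), among titles with the hyphen (0.414) and between -0.566 and 0.037 without 1 tumour. Between 3 and 2 weeks no setting gave a gene that passed, and differences turned sign: Tgfbr3 (0.734) and Bmpr1b (0.62) among titles with the hyphen; Tgfb1 with quantile normalization (0.003), the style block (0.007) and among titles with the hyphen (0.397); Trim33 with quantile normalization (0.006), the style block (0.111), among titles without the hyphen (0.189) and between -0.095 and 0.044 without 1 tumour; Tgfb2 among titles with the hyphen (-0.448), without the 3 arrays (-0.141) and between -0.010 and 0.421 without 1 tumour; Tgfbi among titles without the hyphen (0.255) and between -0.518 and 0.062 without 1 tumour; and Smad4 among non-responders only (-0.04) and between -0.050 and 0.106 without 1 tumour. Among titles with the hyphen the comparison of 3 with 2 weeks rests on 1 tumour after 2 weeks, responder 1. Of the pairs, Tgfb1 with Tgfbi turned to an r of 0.00343 over groups of response and week. Responder 1 was left out there, since it was the only responder after 2 weeks. Within title styles Tgfb3 with Tgfbi (r of 0.547) and Tgfbi with macrophages (0.555) no longer passed. Why these values moved was not tested.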
